A study of Mus musculus with 4 samples.

Results

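The genes described here encode the proteins of the cytosolic ribosome, the machine that translates nuclear mRNAs. They were taken from the gene table by name: symbols made of Rpl or Rps and a number, together with Rplp0, Rplp1, Rplp2 and Rpsa, and without the Rps6k kinases, Rps27a and symbols marked as pseudogenes. Of 85 matching names among 32285 genes, 82 had at least 100 UMIs over the 4 libraries and are the members. A UMI (unique molecular identifier) marks 1 captured RNA molecule, so a UMI count needs no scaling by transcript length. Below the minimum were Rpl3l with 14 UMIs, Rpl39l with 8 and Rpl10l with 0, which are known mainly from striated muscle and testis. The name rule also brought in Rps19bp1, a protein that binds Rps19, and Rpl7l1, a relative of Rpl7, neither of which is a core subunit of the ribosome. All 82 members are annotated as protein coding in GENCODE M21 on GRCm38, on 19 chromosomes, with 4 on the X chromosome (Rpl10, Rpl36a, Rpl39 and Rps4x).

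The study profiled single cells of mouse retina at P30 (postnatal day 30) with droplet capture on a 10x Chromium instrument, using 1 retina per library. The 2 genotypes were wildtype (WT) and NLGF, and each had 1 female and 1 male. NLGF is the usual name of an App knock-in mouse line whose amyloid precursor protein carries a humanised amyloid-beta sequence and familial Alzheimer disease mutations, expressed from the animal's own App locus in every cell type that uses it. No treatment was given, and the labels name no allele beyond the word nlgf and no background strain. Below, values for the 4 libraries are listed in 1 order: female and male wildtype, then female and male NLGF. Each genotype has 2 animals of different sex, and the spread between them includes the difference between the sexes.

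A eukaryotic ribosome joins a small subunit, made with the Rps proteins, to a large subunit, made with the Rpl proteins, and its lateral stalk is formed by Rplp0 with Rplp1 and Rplp2. The subunits are needed in equal numbers, and most of their genes are expressed together. Many of their mRNAs begin with a C followed by a run of pyrimidines, the 5′ terminal oligopyrimidine (TOP) tract, through which mTOR signalling and Larp1 control their translation. A few proteins have paralogues that can take their place in the ribosome, among them Rpl22l1 for Rpl22, Rps27l for Rps27 and Rpl36al for Rpl36a. In the retina, photoreceptors renew their light-sensing outer segments daily, which demands steady protein synthesis.

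The start regions of the paralogue pairs and of several members that varied widely between cell classes, with and without the tract, are shown because the tract is the sequence feature these genes are known to share. Each window runs 30 bases 5′ to 3′ on the transcribed strand, with 10 bases before the annotated RefSeq start and 20 from it (GRCm38.p6). Capitals mark a run of C followed by at least 4 pyrimidines that begins within 5 bases of that start.
Rps27, chr3:90213629-90213658, minus strand: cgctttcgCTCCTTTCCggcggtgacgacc
Rps27rt, chr9:114982720-114982749, minus strand: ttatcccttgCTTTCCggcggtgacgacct
Rps27l, chr9:66946076-66946105, plus strand: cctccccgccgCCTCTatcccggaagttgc
Rpl22, chr4:152325716-152325745, plus strand: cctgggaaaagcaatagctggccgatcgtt
Rpl22l1, chr3:28805498-28805527, plus strand: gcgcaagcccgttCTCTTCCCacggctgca
Rpl36a, chrX:134585644-134585673, plus strand: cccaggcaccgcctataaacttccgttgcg
Rpl36al, chr12:69184048-69184077, minus strand: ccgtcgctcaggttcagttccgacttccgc
Rps2, chr17:24720053-24720082, plus strand: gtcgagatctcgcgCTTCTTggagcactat
Rpl12, chr2:32961702-32961731, plus strand: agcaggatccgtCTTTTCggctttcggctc
Rpl10, chrX:74270806-74270835, plus strand: tacagtggaagataggccgcctatataagg
Rpl10a, chr17:28328461-28328490, plus strand: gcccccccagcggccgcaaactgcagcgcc
Rps19bp1, chr15:80264287-80264316, minus strand: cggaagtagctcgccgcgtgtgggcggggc
Rpl7l1, chr17:46782637-46782666, minus strand: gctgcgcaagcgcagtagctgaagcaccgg
Of the 82 members, 63 had an entry in the RefSeq promoter table, and 30 of these (47.6%) held such a tract in at least 1 of their windows. The share was 21.2% of all 27025 genes in the table and 24.6% of 69 genes for mitochondrial ribosomal proteins, which form a separate ribosome. A window without the tract (or the second Rps27l start, which holds none) says only that these letters are not near the annotated start. Rps27 and Rps27rt, an intronless copy of Rps27 on chromosome 9, have tracts of different length that end in the same letters and are followed by the same bases. Their transcripts also share a run of 341 bases, while the longest run shared by Rpl22 and Rpl22l1 is 26 bases, by Rpl36a and Rpl36al 24, and by Rps27 and Rps27l 11. The 590 UMIs of Rps27rt are therefore uncertain. The 5 symbols marked as pseudogenes of members held 889 UMIs, including 270 of Rpl10-ps3, a near copy of Rpl10, so the level of Rpl10 is uncertain as well.

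The files held 35191 barcodes and 85860041 UMIs, with a median per barcode of 945.5, 1168.5, 1005 and 1054 UMIs in the 4 libraries. After filtering, 31327 cells were clustered without the member genes and named from marker genes, giving 25265 rods, 1539 cone bipolar cells, 722 Müller glia, 693 rod bipolar cells, 673 cones, 651 amacrine cells, 97 ganglion cells, 90 endothelial cells and 80 microglia. The names are those of rebuilt clusters and stand for "like" these types. The 1517 cells of 2 further clusters mixed markers of different types or were shallow and stayed unnamed. A total of 132 barcode strings occurred in more than 1 library.

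Members supplied 4098071 UMIs, or 4.77% of all, and their share differed by class more than by library. In microglia, the resident immune cells, it was 17.8%, 15.8%, 20.6% and 15.2%. Endothelial cells, which line the vessels, followed with 7.98%, 7.52%, 7.41% and 7.22%. Neither class overlapped any other named class in these values. Rod bipolar cells lay at 5.05% to 5.67%, cone bipolar cells at 4.89% to 5.17% and Müller glia, the radial support cells of the retina, at 4.43% to 5.05%, and the last of these overlapped both cone bipolar cells and rods. Rods as a whole had 4.48%, 5.33%, 4.42% and 4.55%. Cones lay at 3.56% to 4.24%, amacrine cells at 3.49% to 3.70% and ganglion cells at 2.05% to 3.51%, with ranges that overlap. Exact 95% binomial intervals, which cover counting error only, were widest in the 12 microglia of the NLGF male, at 14.8% to 15.6%.

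**Figure D1:**
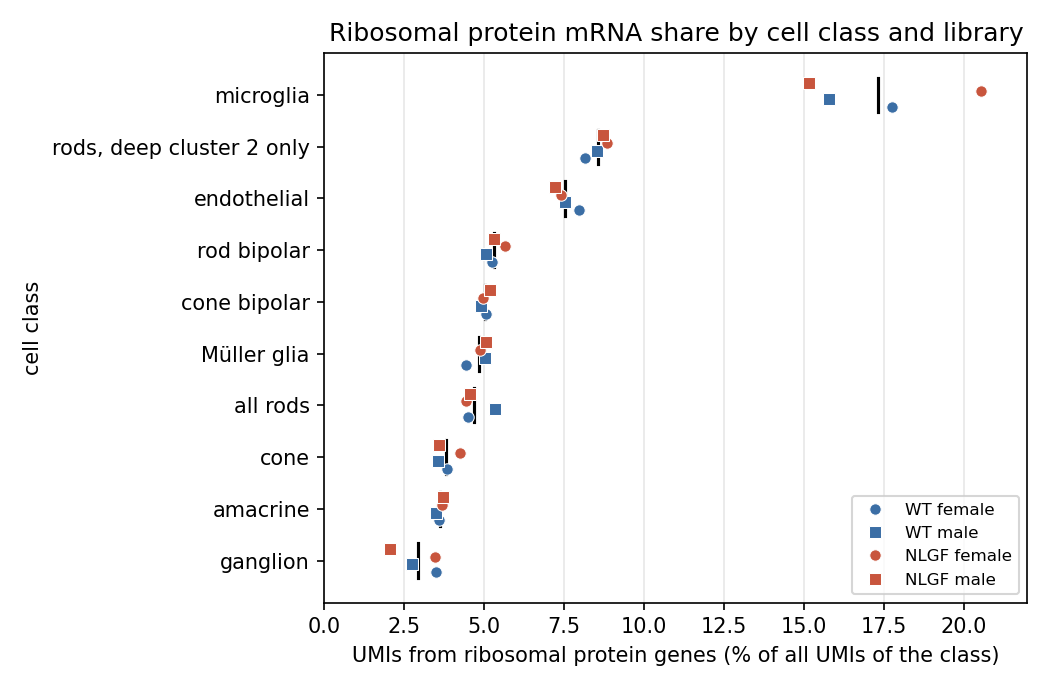
Share of all UMIs that came from the 82 ribosomal protein genes (x axis, percent) in each cell class (y axis), with 1 point per library (colour for genotype, circle for female, square for male) and a bar at the mean of the 4. Microglia lie above 15% in every library, and rods of cluster 2 alone (8.16% to 8.85%) lie above every neuron class.

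The value for rods as a whole hides a wide difference between rod barcodes. In rod cluster 2, led by genes that include Pde6g and Gngt1, which encode parts of the light-sensing cascade, members made up 8.16%, 8.52%, 8.85% and 8.71% of UMIs. The other 4 rod clusters lay between 1.49% and 2.49% in every library. Malat1, a long noncoding RNA retained in the nucleus, made up 0.299% to 0.420% of UMIs in cluster 2 and 6.54% to 13.5% in the other rod clusters. The median UMI count per barcode was 2188 to 2347 in cluster 2 and 665 to 1302 in the others. Depth and Malat1 thus moved with the member share between rod clusters, and their part in it was not tested. By depth alone, rods with 500 to 1000 UMIs had member shares of 1.71% to 2.21%, and rods with at least 4000 had 8.02% to 8.38%. In Müller glia, a different class, Malat1 made up 10.3% to 11.4% of UMIs at median depths of 7676 to 11225 UMIs.

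**Figure D2:**
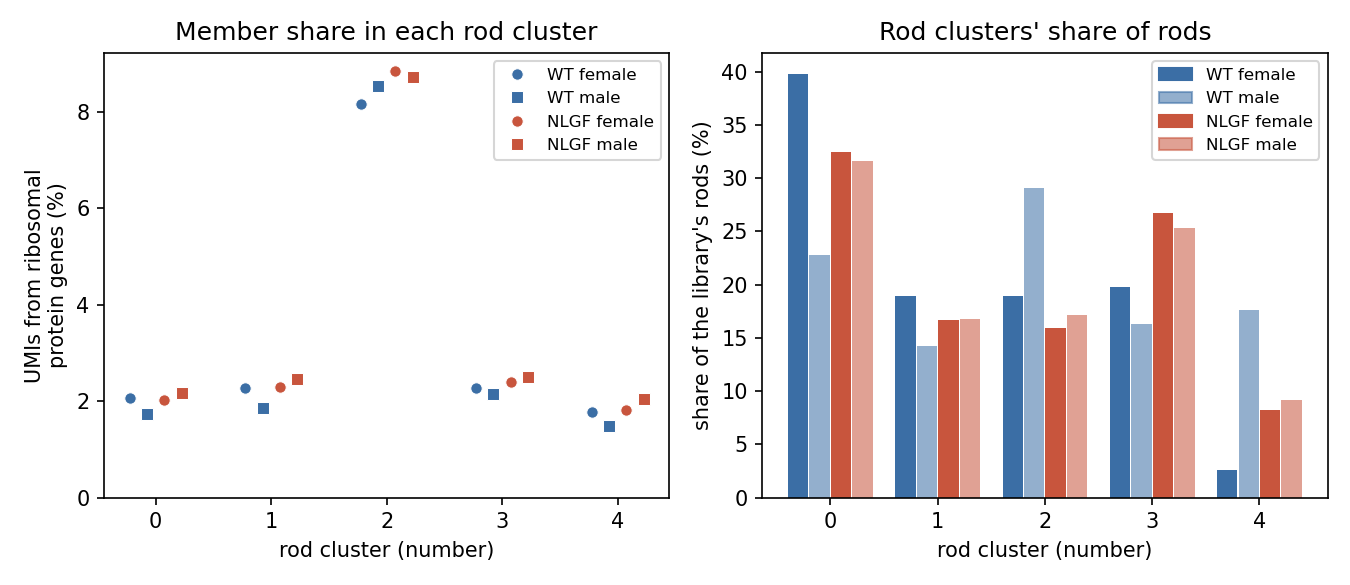
Left, share of UMIs from ribosomal protein genes (y axis, percent) in each of the 5 rod clusters (x axis), 1 point per library. Right, share of each library's rods (y axis, percent) that fell in each cluster, 1 bar per library, full colour for females and pale for males. Cluster 2 stands at 8.16% to 8.85% and held 29.1% of rods in the WT male against 16.0% to 18.9% in the other libraries.

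Composition differed inside the rods too. Rps2, a core protein of the small subunit near the mRNA entry channel, supplied 10.6, 9.85, 8.63 and 9.12 of every 1000 member UMIs in cluster 2. In the other rod clusters together it supplied 37.5, 37.5, 31.4 and 29.2. Rpl7l1 supplied 0.39 to 0.51 in cluster 2 and 2.04 to 2.19 in the others, and the stalk protein gene Rplp1 supplied 29.4 to 31.7 in cluster 2 and 19 to 20.8 in the others. The ranges did not overlap for any of these 3 members. Rpl10a, a large-subunit protein, was closer, at 15 to 15.4 and 18.9 to 21.2.

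Expressed per 1000 member UMIs, a scale that does not move with the share of members in the cell, members differed less between classes. The ratio of the highest to the lowest class mean had a median of 1.63 over the 82 members and was under 2 for 63 of them. Between classes the coefficient of variation had a median of 17%, against 5.93% between libraries within a class. Rps29 was the most abundant member on average at 36.2 per 1000, followed by Rps24 at 27.6, both small-subunit proteins. By this coefficient, Rps27l (61.8%), Rps19bp1 (51.9%), Rpl22l1 (50.8%) and Rpl10a (40.4%) varied most between classes. By the ratio of highest to lowest class, Rps19bp1 (6.24), Rpl22l1 (5.24), Rpl7l1 (5.04) and Rps27l (4.14) led. Rps27rt varied by 33.8% between classes and by 35.01% between libraries, so its classes did not differ by more than its libraries.

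Rps27l, the paralogue of the small-subunit protein Rps27 and a known p53 target, stood out in Müller glia. It supplied 3.13, 3.0, 3.32 and 3.27 per 1000 there, 2.05 to 2.85 in endothelial cells and 0.99 to 1.13 in rods. The ranges of Müller glia, endothelial cells and rods did not overlap. In edgeR's quasi-likelihood test, Rps27l was 1.53 ± 0.09 (SE, log2) higher in Müller glia than in rods (adjusted p = 1.1e-23), in 4 of 4 libraries, and still 0.67 higher when only rods of cluster 2 were used. In endothelial cells the difference was 1.61 ± 0.15 (adjusted p = 1.5e-14).

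Rpl10, a late-joining protein of the large subunit, supplied 2.68 to 3.04 per 1000 in rods and more in every other class, up to 8.41 to 11.6 in microglia. It had the highest or second highest difference from rods in all 7 tested classes, from 0.43 in cones to 3.39 ± 0.13 (SE, log2) in microglia (adjusted p = 1.9e-32). Against rods of cluster 2 alone, its difference turned negative in amacrine cells (-0.33), cones (-0.53) and cone bipolar cells (-0.026). The last of these did not pass (adjusted p = 0.80 in edgeR's test), nor did the 0.17 in rod bipolar cells (adjusted p = 0.075 in the same test). Rpl10a, an unrelated large-subunit protein despite its name, was high in photoreceptors, with 16.2 to 17.1 per 1000 in rods, 12.1 to 13.6 in cones and 5.91 to 8.78 in all other tested classes. Rods and cones overlapped neither each other nor any other tested class.

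Other members marked single classes. Rps10 supplied 19.7 to 20.7 per 1000 in Müller glia and 10.3 to 16.6 elsewhere among tested classes, and Rpl35a 20.7 to 22.8 in rod bipolar cells and 11.1 to 18.6 elsewhere. Rps12 was highest in microglia (22.1 to 23.5) and Rpl38 in endothelial cells (20.6 to 29.8), and neither range met that of any other tested class. Rps15 was high in rods (15.9 to 17.1). Rpl3, a large-subunit protein near the catalytic centre, was high in the amacrine cells (18.3 to 19.7), rod bipolar cells (18 to 20.02) and cone bipolar cells (16.2 to 19.9), and low in Müller glia (9.62 to 10.8).

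**Figure D3:**
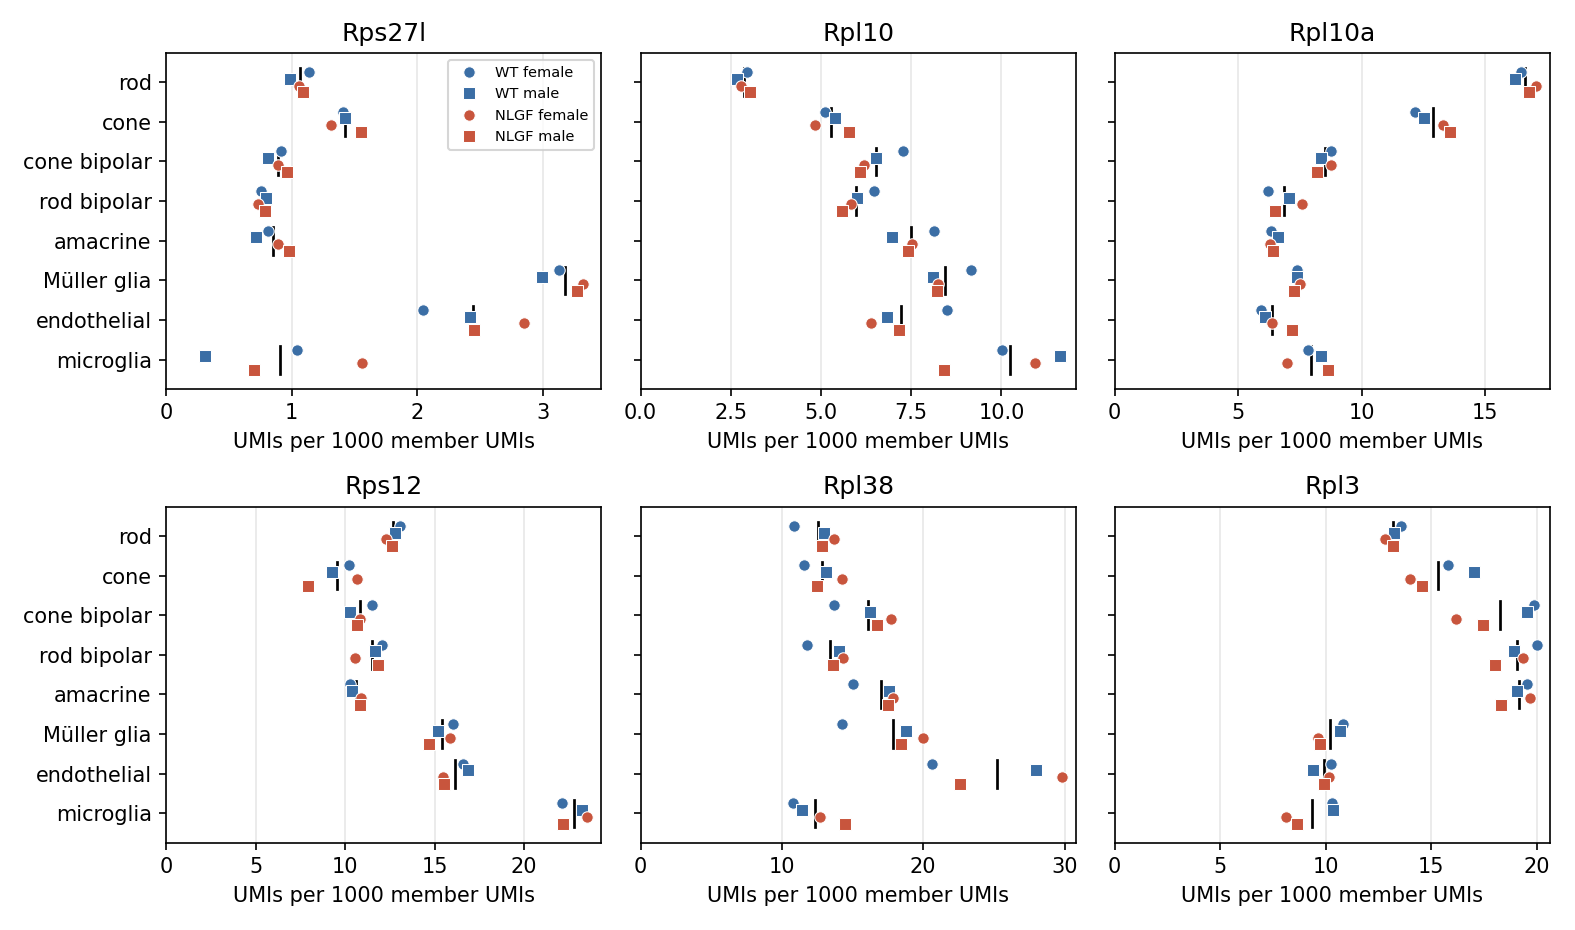
UMIs of 6 members per 1000 member UMIs (x axes) in each tested cell class (y axis), 1 point per library and a bar at the mean of the 4. Rps27l is highest in Müller glia (3.0 to 3.32), Rpl10a in rods (16.2 to 17.1), Rps12 in microglia and Rpl38 in endothelial cells.

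The stalk genes shared their extremes in part. Rplp0, the stalk base, supplied 9.60 ± 1.87 (SD, n = 4) per 1000 in microglia, 8.43 ± 0.65 in Müller glia, 6.19 ± 0.31 in rods and 4.59 ± 0.28 in rod bipolar cells. Rplp1 supplied 28.6 ± 2.6 in microglia, 23.7 ± 1.2 in Müller glia, 27.4 ± 1.2 in rods and 16.7 ± 1.2 in rod bipolar cells, so both were highest in microglia and lowest in rod bipolar cells among all classes. Rplp2 stayed between 8.83 and 12.3 in the class means. Rpsa, the small-subunit protein also known as the laminin receptor, supplied 15.5, 14.3, 14 and 14.1 in rods and 7.40, 6.64, 6.59 and 6.22 in Müller glia, which had the lowest range. Its log2 difference between Müller glia and rods was -1.16 ± 0.09 (SE) (adjusted p = 3.2e-19).

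The counts of members that differed from rods, at an adjusted p under 0.05 in 1 edgeR fit of all classes with the library as a block, depended on which rods were taken. Rods are the common reference of these comparisons. In microglia 79 of 82 members were higher and 0 lower, where 11.6% of all genes were called higher and 24.5% lower. In endothelial cells 60 were higher and 6 lower (all genes 26.4% and 34.1%). In amacrine cells 2 were higher and 76 lower (36.6% and 39.3%), and in cones 2 and 65 (19.7% and 33.4%). Cone bipolar cells had 11 higher and 44 lower (32.7% and 40.3%), Müller glia 26 and 24 (36.5% and 39.3%), and rod bipolar cells 29 and 22 (27% and 39.4%). With rods of cluster 2 as the reference, the counts became 51 higher and 8 lower in microglia (all genes 13% and 19.6%), 4 and 72 in endothelial cells (29.4% and 28.4%), and 3 and 79 in Müller glia (42.1% and 32%). They were 0 and 79 in rod bipolar cells (32.7% and 32%), 0 and 81 in cone bipolar cells (40.4% and 31.9%), 0 and 82 in amacrine cells (42.4% and 31.7%) and 0 and 82 in cones (26.1% and 25.2%).

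The scaling moved the split as well. The median log2 difference of members stood beside that of all genes at 1.45 and -1.09 in microglia, 0.50 and -0.44 in endothelial cells, 0.00 and -0.11 in Müller glia, 0.08 and -0.29 in rod bipolar cells, -0.22 and -0.15 in cone bipolar cells, -0.40 and -0.24 in cones and -0.76 and -0.09 in amacrine cells. Without TMM (edgeR's trimmed-mean scaling) the all-gene medians lay between -0.71 and 0.28, and the split became 38 higher and 21 lower in Müller glia, 37 and 15 in cone bipolar cells, 43 and 13 in rod bipolar cells, 8 and 56 in amacrine cells, 5 and 49 in cones, 74 and 3 in endothelial cells and 79 and 0 in microglia. The shares of all genes then called higher and lower were 38.8% and 36.4% in Müller glia, 44.5% and 25.7% in cone bipolar cells, and 30.3% and 35% in rod bipolar cells. They were 47.4% and 26.5% in amacrine cells, 24.4% and 26.1% in cones, 29.9% and 27.4% in endothelial cells and 13% and 14.8% in microglia. With DESeq2 the split was 45 and 17 in Müller glia (all genes 41.3% and 32%) and 17 and 28 in cone bipolar cells (37.6% and 31.3%). It was 43 and 12 in rod bipolar cells (30.6% and 33.6%) and 4 and 68 in amacrine cells (41.8% and 31.1%). Cones had 5 and 56 (21.9% and 27.6%), endothelial cells 73 and 3 (31.3% and 25.2%), and microglia 80 and 0 (22.8% and 11.4%). Members were mostly lower in amacrine cells and cones, and mostly higher in microglia, under all of these settings. The majority turned with the choice of rods in endothelial and rod bipolar cells and, from near balance, in Müller glia. In cone bipolar cells it turned with the scaling, where without TMM more of all genes were also called higher than lower.

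Beside the members already named, the 3 largest differences in each direction included Rps2 among the lowest in amacrine cells (-1.85), cones (-1.13), cone bipolar cells (-1.13), Müller glia (-1.0), rod bipolar cells (-0.96) and endothelial cells (-0.42). The high Rps2 share in rods outside cluster 2, given above, moved with these values, and its part was not tested. Among members with at least 50 CPM in the class, Rpl10a was the lowest in amacrine cells (-2.13), cone bipolar cells (-1.21), Müller glia (-1.22), rod bipolar cells (-1.22) and endothelial cells (-0.92). Cones had Rps19 (-0.96) and Rps15 (-0.87) next to Rps2, with Rpl36al (0.22) and Rps19bp1 (0.16, adjusted p = 0.18 in edgeR's test) at the top. Rod bipolar cells had Rplp1 (-0.67) among the lowest, and Rpl35a (0.98) and Rps3a1 (0.70) among the highest. Cone bipolar cells had Rpl35a (0.42) and Rpl37 (0.36) next to Rpl10 (0.94), Müller glia Rps10 (0.83), and endothelial cells Rpl38 (1.43) at the top and Rpl22l1 (-0.53) at the bottom. In microglia, Rps9 (2.39) and Rps12 (2.35) followed Rpl10, and small differences were those of Rpl22l1 (0.07, adjusted p = 0.81 in the same test) and Rpl10a (0.43).

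Paralogue use gave the clearest order of the classes and rests on a ratio within a class, so it does not depend on the scaling. Rpl22l1 supplied 69.1%, 67.8%, 65.2% and 65.8% of Rpl22 plus Rpl22l1 UMIs in amacrine cells, from 720 to 1136 UMIs per library. In Müller glia it supplied 28.4%, 30.2%, 29.2% and 29.4%, and the 2 classes are far apart. Over all classes, the mean of 4 libraries ± SD was 68.5% ± 2.4 in ganglion cells, 67.0% ± 1.8 in amacrine cells, 55.1% ± 1.2 in cone bipolar cells, 40.7% ± 4.6 in cones, 39.4% ± 3.1 in rod bipolar cells, 33.9% ± 0.9 in rods, 29.3% ± 0.7 in Müller glia, 22.4% ± 4.5 in endothelial cells and 18.4% ± 3.6 in microglia. Ganglion cells and amacrine cells overlapped, as did cones with rod bipolar cells and endothelial cells with microglia. With cluster 2 alone, rods lay at 27.8% to 31.9% and overlapped Müller glia. Between amacrine cells and rods, the log2 difference in edgeR's test was -1.76 ± 0.10 (SE) for Rpl22 (adjusted p = 1.1e-25) and 0.23 ± 0.07 for Rpl22l1 (adjusted p = 0.0038), the latter turning to -0.72 against rods of cluster 2.

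Rps27l supplied 17.3%, 13.7%, 13.5% and 13% of Rps27 plus Rps27l UMIs in Müller glia. The means were 14.4% ± 2.0 in Müller glia, 12.4% ± 1.4 in endothelial cells, 10.7% ± 1.7 in cones, 6.84% ± 1.12 in rods, 6.72% ± 0.99 in cone bipolar cells, 6.09% ± 0.65 in amacrine cells and 5.03% ± 0.76 in rod bipolar cells (SD, n = 4). Each of these classes overlapped the next in the order, and Müller glia overlapped none but endothelial cells. In microglia and ganglion cells the share rested on 3 to 17 Rps27l UMIs per library. The 2 pairs did not order the classes alike: amacrine cells were near the top for Rpl22l1 and near the bottom for Rps27l, and Müller glia the reverse.

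Rpl36al supplied 53.2% ± 4.7 of Rpl36a plus Rpl36al UMIs in ganglion cells and 51.2% ± 1.9 in amacrine cells, against 36.0% ± 4.3 in Müller glia and 28.4% ± 5.8 in microglia (SD, n = 4), with the other classes between 36.1% and 45.2%. Rpl7l1 supplied 7.56% to 13% of Rpl7 plus Rpl7l1 UMIs in the class means outside microglia. In microglia the mean was 2.94%, but it rests on 3, 3, 3 and 1 Rpl7l1 UMIs in the 4 libraries, and the exact 95% interval of the NLGF male alone runs from 0.0703% to 14.5%. In rods of cluster 2 it supplied 3.66%.

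**Figure D4:**
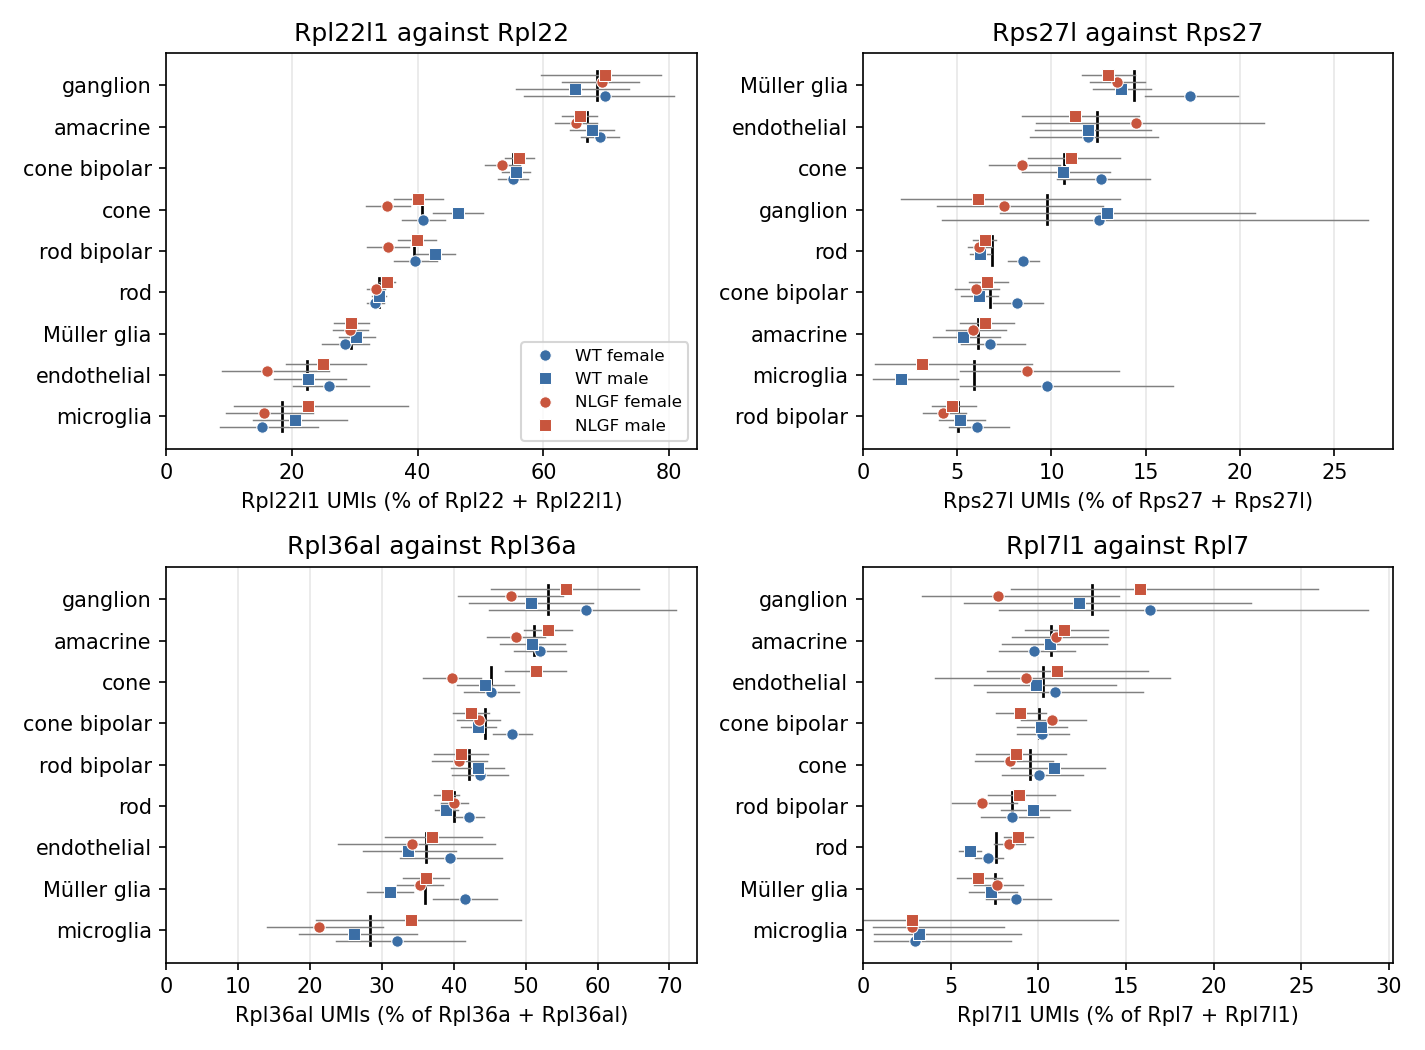
UMIs of each paralogue as a percent of paralogue plus parent UMIs (x axes) by cell class (y axes, ordered by mean), 1 point per library with its exact 95% binomial interval and a bar at the mean. Rpl22l1 ranges from 18.4% in microglia to 68.5% in ganglion cells, and Rps27l is highest in Müller glia at 14.4%.

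In NLGF against WT, no member passed an adjusted p of 0.05 in edgeR's quasi-likelihood test in any of the 8 tested classes. The share of all tested genes called was 1.67% in Müller glia, 0.00888% in amacrine cells, 0.0958% in endothelial cells and 0% in cones, cone bipolar cells, microglia, rods and rod bipolar cells. At an unadjusted p under 0.05 the members higher and lower in NLGF were 2 and 1 in Müller glia, 5 and 2 in amacrine cells, 6 and 0 in cones, 8 and 3 in cone bipolar cells, 0 and 2 in endothelial cells, 1 and 0 in microglia, 1 and 23 in rods, and 11 and 1 in rod bipolar cells. The share of all genes at this threshold, in either direction, was 11.5% in Müller glia, 4.39% in amacrine cells, 5.64% in cones, 6.7% in cone bipolar cells, 5.06% in endothelial cells, 9.33% in microglia, 8.42% in rods and 6.29% in rod bipolar cells. With sex as a term in the fit, 1 member was called in Müller glia (Rps27, adjusted p = 0.041), 2 in cones, 1 in cone bipolar cells and 2 in rod bipolar cells, all higher in NLGF. DESeq2 called 2 members in cone bipolar cells, both higher in NLGF, and 0 in each other class. Every member called in these alternatives belongs to a group of 9, described below, that was lowest in the WT female in all 9 classes. The share of all genes called in these alternatives is not given here. The median log2 difference of members was -0.00 in Müller glia and between -0.09 and 0.12 in the other classes apart from rods.

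In rods, 77 of 82 members lay below 0, with a median of -0.22 against 0.01 for all genes, and the genotypes did not overlap for 55 of the 82. Of all genes tested in rods, 39.6% did not overlap, and 19.2% did so with NLGF lower, as 54 of the members did. The 3 of smallest p were Rps9, Rps18 and Rpsa, all of the small subunit. Rps9 stood at 442, 549, 385 and 401 CPM (the usual per-library scaling of counts, here with TMM), a log2 difference of -0.33 ± 0.12 (SE, adjusted p = 0.56). For Rps18 the values were 646, 779, 550 and 589 CPM (-0.32 ± 0.11, adjusted p = 0.56). Rpsa had 697, 802, 602 and 628 CPM (-0.29 ± 0.11, adjusted p = 0.56). In each of them the WT male was highest and the NLGF female lowest. Rpl7l1 was the member of smallest p in the other direction, at 39.6, 38.8, 44.3 and 48.2 CPM (0.24 ± 0.10, adjusted p = 0.57), and Rpl37 (0.03) and Rps27 (0.01) came next.

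The share of rods in cluster 2 moved with this shift: the cluster held 18.9%, 29.1%, 16.0% and 17.2% of rods in the 4 libraries. The mean member share was 8.34% in WT and 8.78% in NLGF in cluster 2, and it was higher in NLGF in each of the other 4 rod clusters as well, with no overlap between the genotypes in clusters 1, 2, 3 and 4 and an overlap in cluster 0. A fit of cluster 2 alone gave a median of 0.01 over the 82 members, 31 of them below 0 and 0 called. In bins of depth, both NLGF libraries lay below both WT libraries in the middle bins: rods with 1000 to 2000 UMIs had 4.04%, 3.82%, 3.74% and 2.97%, and those with 2000 to 4000 had 7.16%, 7.76%, 6.66% and 6.999%. The genotypes overlapped in the shallowest and the deepest bin. The part of the cluster shares in the rod difference was not tested. Without the WT male the median in all rods was -0.07 and 3 members were called higher in NLGF (0.422% of all genes called higher), while without the WT female it was -0.36 and 74 were called lower (5.07% of all genes). In these fits the lone WT library is assumed to vary like the NLGF pair.

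**Figure D5:**
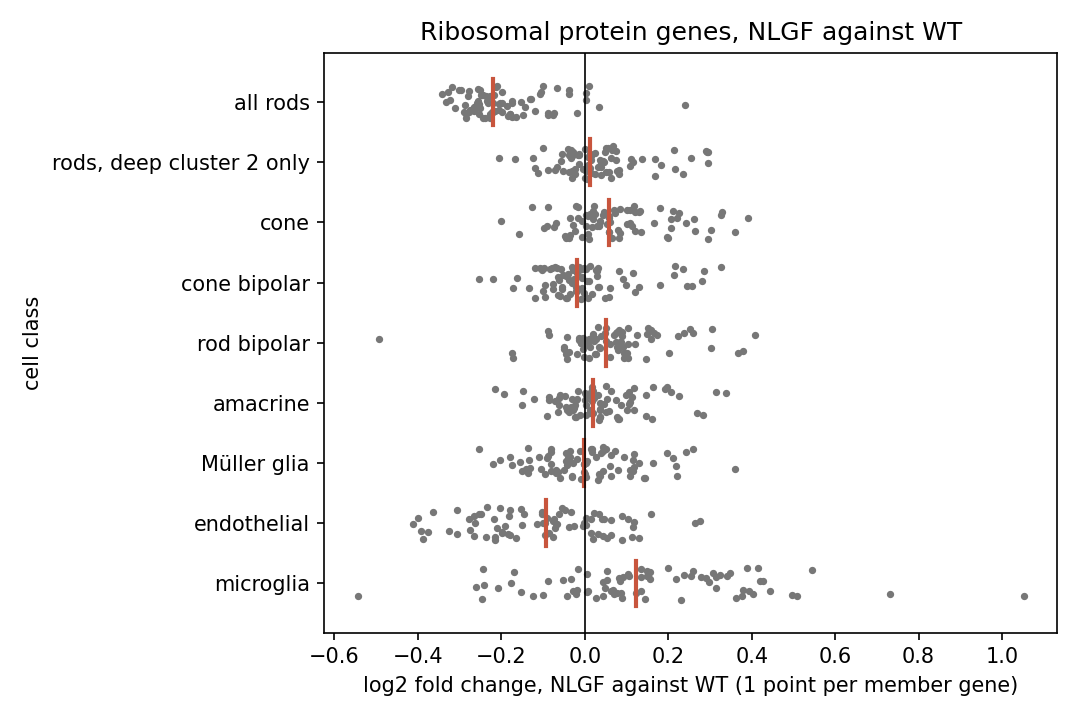
Log2 fold change of each member between NLGF and WT libraries (x axis, 1 point per gene, edgeR) in each tested class and in rods of cluster 2 alone (y axis), with a bar at the median. All rods are shifted to -0.22, while rods of cluster 2 lie at 0.01 and no member passed the adjusted threshold in any row.

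In Müller glia, the cells named in the study's title, 39 members lay above 0 and 43 below. Rps27 had the smallest p, at 677, 977, 1034 and 1093 CPM (0.36 ± 0.13, SE on the log2 scale, adjusted p = 0.19). Rps28 stood at 454, 602, 634 and 634 CPM (0.26 ± 0.12, adjusted p = 0.39), and Rpl37 at 660, 960, 964 and 957 (0.24 ± 0.13, adjusted p = 0.48). All 3 were lowest in the WT female, and for Rpl37 the other 3 libraries were alike. Without the WT male, 9 members were called higher in NLGF in Müller glia (0.956% of all genes), with the WT arm then a single library. In the other direction, Rps2 stood at 430, 462, 331 and 419 CPM (-0.25 ± 0.12, adjusted p = 0.39), Rpl13a at 713, 756, 622 and 653 (-0.20 ± 0.11, adjusted p = 0.52) and Rpl4 at 201, 239, 207 and 184 (-0.18 ± 0.10, adjusted p = 0.53). Of the X-linked members, Rpl10, Rps4x and Rpl36a were lower in the female than in the male of each genotype. The sexes did not overlap for Rps4x and Rpl36a, with no test of the sexes. The share of all genes without overlap of the sexes is not given here, while the genotypes did not overlap for 41% of all genes. As a share of member UMIs, Rpl36a was lowest in the WT female in 8 of 9 classes. The part of that library in the Rpl36a values was not tested. Rpl10 stood at 415, 420, 399 and 410 CPM, Rps4x at 489, 559, 506 and 517, Rpl36a at 247, 335, 315 and 318, and Rpl39 at 479, 639, 649 and 606.

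The low WT female values were shared by a group of members. Chosen after their values were seen, 9 members (Rpl35, Rpl36, Rpl37, Rpl37a, Rpl38, Rpl39, Rps21, Rps27 and Rps28) had their lowest per-1000 value in the WT female in all 9 classes, and no member was lowest in all 9 in any other library. Of these 9, Rpl35 and Rps21 were also highest in the NLGF female in all 9 classes. Rpl37a and Rpl38 were highest there in 8 classes, Rpl37 and Rps28 in 7, Rps27 in 5, Rpl36 in 4 and Rpl39 in 3. The annotated transcripts of the 9 had a median length of 399 bases, against 728 for the other 73 members. For 81 members, the log2 difference of the WT female from the mean of the other libraries was taken as the median over the tested classes. Its Spearman correlation with transcript length was 0.37 and, with length on a log scale, its Pearson r was 0.37. The member left out was Rps27rt, with 374 bases among the shortest, which was strictly lowest in the WT female in 1 class. These points share the same 4 libraries, and genes are not independent replicates. The NLGF minus WT difference of the 9 was above 0 for all of them in Müller glia, cones, both bipolar classes, amacrine cells and microglia, with medians of 0.20 to 0.41. It was above 0 for 8 of 9 in endothelial cells (median 0.05) and for 3 of 9 in rods (median -0.04). Since the group was chosen for low values in 1 of the WT libraries, these differences are in part fixed by the choice and support nothing. The parts of the WT female and NLGF female libraries in them were not tested.

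The difference in genotype effect between Müller glia and rods was tested as an interaction with the library as a block. No member passed (0.397% of all genes did), although 23 had an unadjusted p under 0.05 on the side of a higher NLGF effect in Müller glia and 1 on the other. Of all genes, 4.71% and 3.47% did so on these sides. The DESeq2 count was also 0. Rpl9, a large-subunit protein, had the smallest p, with a difference of 0.37 ± 0.13 (SE, log2, adjusted p = 0.34), followed by Rps27 (0.36 ± 0.13, adjusted p = 0.37). The median over members was 0.23 with all rods and 0.02 with rods of cluster 2 only. Without the WT female 24 members passed, all on the side of Müller glia (0.826% of all genes).

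Genes that act with the ribosome were read from lists chosen with earlier results known. In Müller glia, 2 of 21 tested elongation factors and TOP mRNA partners were called in NLGF against WT, both higher, and 0 lower. One of them was Snhg1, a snoRNA host gene, at 27.9, 26.9, 52.7 and 62.7 CPM (1.08 ± 0.20, SE on the log2 scale, adjusted p = 0.00097), and its genotypes did not overlap. Of 30 initiation factors, Eif2s2, the beta subunit of eIF2, was 0.87 ± 0.11 higher (adjusted p = 2.0e-06) and Eif5, which acts on eIF2 at the start codon, 0.58 ± 0.10 higher (adjusted p = 0.00015). Among 14 genes of TOP translation control, only Eif4ebp1, the mTOR-regulated repressor of cap-dependent translation, was called, and it was 1.98 ± 0.24 higher (adjusted p = 2.9e-07). None of 57 tested ribosome assembly genes and none of 78 mitochondrial ribosomal protein genes passed, with medians of 0.11 and -0.02 against 0.01 for all genes. In the other classes no gene of the 5 lists passed, but in microglia only 0 to 18 genes of a list could be tested. The share of all genes called in each comparison is given above.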

How the data were processed

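Single-cell RNA was measured in 4 retinas, 1 library each. The deposited matrices hold raw UMI counts per gene and barcode, which the authors made with Cell Ranger, version 6.1.1 per the file headers and 3.1.0 per the submitters' processing notes, which also name STAR and mm10. The filters required 300 detected genes and allowed 20% mitochondrial UMIs, which left 33329 barcodes, and the 2002 with the highest 6% of Scrublet scores were removed, since the automatic threshold called 2. Cells were clustered with scanpy 1.11.5 (2000 variable genes without members and sex-linked genes, scaled, 30 components, 20 neighbours, Leiden resolution 1). A cluster took the class with the highest mean z of its markers, or one with more markers among the cluster's 10 genes of largest fold. At least 3 markers had to be detected. The z minimum of 0.5 applied only where no marker of the class was among these 10 genes. Clusters stayed unnamed where markers of 2 classes were mixed, or where they were shallow without such a marker. Resolution, z minimum, the mixing rule and the exclusion of sex-linked genes were settled after seeing clusters and markers.

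UMIs were summed per class and library and tested, leaving out classes where any library had under 10 cells, with edgeR 4.0.16 (R 4.3.3; TMM, filterByExpr, quasi-likelihood, Benjamini-Hochberg over all genes tested, threshold 0.05). DESeq2 1.42.0 was an alternative. The tests were checked on simulated data. The library, 1 animal, is the replicate, and totals of 28230 UMIs in the smallest class sum (microglia, NLGF male) to 9140171 in the largest (rods, WT male) set the precision. Named members were the 3 of smallest p per direction in Müller glia and rods where none passed, the 3 highest and 3 lowest against rods among those with at least 50 CPM, the paralogues, stalk genes, Rpsa and X-linked members, and up to 4 called genes per list; some genes that this rule names are not reported here. Members, lists and rules were chosen with earlier results of these data known. Shares were not tested: an exact permutation test of 2 against 2 libraries cannot reach the threshold. Alternatives were DESeq2, no TMM, no low-count filter, each library left out, sex as a block, high doublet scores kept, members among the clustering genes, cells with at least 1000 UMIs and mitochondrial genes left out. Cells with at least 2000 UMIs, and rods of cluster 2 only, were chosen after seeing the data.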

Additional observations from a re-analysis of the deposited data

How the results depend on the processing

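Most counts and shares kept their size under the alternatives run. For NLGF against WT, where the main count was 0 in every class, leaving out 1 library gave 0 to 74 called members in rods, 0 to 9 in Müller glia, 0 to 7 in cone bipolar cells, 0 to 4 in rod bipolar cells and 0 to 2 in both amacrine cells and cones; the WT female is the library behind the 74 and the WT male behind the 9, 7 and 4 and the 2 in amacrine cells, and the NLGF male behind the 2 in cones. DESeq2 gave 2 called members in cone bipolar cells, and no low-count filter gave 1 in amacrine, 3 in cone bipolar and 5 in rod bipolar cells. All of these were higher in NLGF and among the same 9. Rods with at least 2000 UMIs gave 3, all lower. With sex as a replicate block in edgeR's test, 1 member was called in Müller glia (Rps27, adjusted p = 0.041) and 2 in cones. In cone bipolar cells 1 was called and in rod bipolar cells 2, and all of these were higher in NLGF and among the 9. The share of all genes called under these settings is not given here. The labels pair the animals by nothing but sex, and the same-sex deviations correlated at 0.04 to 0.35 over genes. The interaction count went from 0 to 24 when a library was left out (the WT female) and to 5 with high doublet scores kept. In rods, leaving out 1 library moved Rpl37 between -0.23 and 0.34 and Rps27 between -0.28 and 0.35, the lowest without the WT female and the highest without the WT male.

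Against rods, the number of called members rose in Müller glia to 79 with cells of at least 2000 UMIs and 82 with rods of cluster 2 only, and in rod bipolar cells to 79 under both. Among named members, differences reversed with cells of at least 1000 UMIs for Rpl22l1 (-0.11) and Rpl36al (-0.31) in amacrine cells, Rpl36al in cones (-0.13) and Rpl37 in cone bipolar cells (-0.055). With at least 2000 UMIs they reversed in amacrine cells for Rpl10 (-0.076), Rpl22l1 (-0.46) and Rpl36al (-0.63), in cones for Rpl10 (-0.27), Rpl36al (-0.44) and Rps19bp1 (-0.49), in cone bipolar cells for Rpl35a (-0.39) and Rpl37 (-0.46), in Müller glia for Rps10 (-0.042) and in rod bipolar cells for Rps3a1 (-0.13). With rods of cluster 2 only they reversed in amacrine cells for Rpl10 (-0.33), Rpl22l1 (-0.72) and Rpl36al (-0.85), in cones for Rpl10 (-0.53), Rpl36al (-0.65) and Rps19bp1 (-0.64), in cone bipolar cells for Rpl10 (-0.026), Rpl35a (-0.69) and Rpl37 (-0.81), in microglia for Rpl22l1 (-0.74) and Rpl10a (-0.50), in Müller glia for Rps10 (-0.40), and in rod bipolar cells for Rpl35a (-0.11) and Rps3a1 (-0.43). The reference then held a higher share of member UMIs, at 8.16% to 8.85% in cluster 2 against 4.42% to 5.33% in all rods. The part of this in the reversals was not tested.

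The member share of rods moved to 6.06%, 7.31% and 8.56% with cells of at least 1000 UMIs, at least 2000 UMIs and cluster 2 only. Without mitochondrial genes in the total the shares moved to 5.18% in Müller glia, 3.80% in amacrine cells, 4.18% in cones, 5.40% in cone bipolar, 5.86% in rod bipolar and 7.86% in endothelial cells. Paralogue shares moved in rods under the same 3 settings: Rpl22l1 to 32.3%, 31.2% and 30.004%, Rpl36al to 38.4%, 36.6% and 34.6%, Rpl7l1 to 6.16%, 4.90% and 3.66%, and Rps27l with cluster 2 only to 5.55%. Rpl7l1 in microglia moved to 3.34% and 3.85% with at least 1000 and 2000 UMIs. Microglia had too few cells for the tests at either depth, endothelial cells at 2000, and no cause was tested beyond these settings. Depth limits microglia most, with 12 to 30 cells per library.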
